A study of Homo sapiens with 12 samples.

Results

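The genes described here are 10 writers, readers and erasers of DNA methylation, chosen by gene symbol from the 58302 genes listed in the deposited tables: DNMT1, DNMT3A, DNMT3B, UHRF1, UHRF2, MBD2, TET1, TET2, TET3 and TDG. Expression was measured by RNA sequencing in 769-P and ACHN, established renal carcinoma cell lines that the labels describe as clear cell renal cell carcinoma. Cells of each line were transfected with an siRNA against NUF2 (siNUF2) or a control siRNA (siControl) and harvested after 48 h, with 3 libraries in each of the 4 groups. NUF2 is a subunit of the NDC80 complex, which joins kinetochores to spindle microtubules. The labels name no genotype other than the knockdown. The lines were grown in different media according to the study's methods, RPMI-1640 for 769-P and Eagle's MEM for ACHN, so line and medium cannot be told apart. The study's supplement describes siNUF2 as a mixture of a pair of NUF2 siRNAs for the experiments after its siRNA tests. The sources do not say that the replicates came from separate cultures, so the p-values below measure the spread between these libraries, which may be technical.

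Methylation of cytosine in CpG dinucleotides is set by DNA methyltransferases, copied onto new strands at replication, read by proteins that bind methylated or hemimethylated CpG, and removed by dilution or oxidation. DNMT1 is the maintenance methyltransferase, and UHRF1 recruits it to hemimethylated DNA behind the replication fork; UHRF2 is the paralogue of UHRF1. DNMT3A and DNMT3B methylate unmodified sites. TET1, TET2 and TET3 oxidise 5-methylcytosine with 2-oxoglutarate as cosubstrate, and TDG, thymine DNA glycosylase, excises the more oxidised bases for base excision repair. MBD2 binds methylated CpG and brings the NuRD corepressor to it. These enzymes matter in kidney cancer because hypermethylation and low 5-hydroxymethylcytosine are familiar features of renal tumours.

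Recovered read totals ran from 29186320 to 38744805 per library. NUF2 itself stood at 19.4, 17.8 and 17.8 FPKM (sequenced fragments scaled to exon length and to library size) in the siControl libraries of 769-P and at 4.17, 3.86 and 3.01 FPKM with siNUF2. In ACHN it stood at 11.6, 15.01 and 14.8 FPKM with siControl and at 2.16, 5.14 and 4.25 FPKM with siNUF2. The siNUF2 groups lay at 20.1% and 27.9% of their siControl means, with no overlap in either line. Of 7 renal epithelial markers, 6 in 769-P and 5 in ACHN reached 1 FPKM in every library; CA9, a hypoxia target typical of clear cell tumours, averaged 0.0254 FPKM in 769-P and 0.0394 FPKM in ACHN under siControl, and CDH6 averaged 0.000699 FPKM in ACHN. Blood markers summed to at most 0.082 FPKM and endothelial markers to at most 0.0877 FPKM in any library. Of the 4 fibroblast markers, 1 (COL1A1) reached 1 FPKM in every ACHN library, and their sums ran from 1.4 to 6.21 FPKM in ACHN. In ACHN the replicate 1 library of each group held the highest DNMT3B and MBD2 and the lowest TDG and TET1 of its group.

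DNMT1 and UHRF1, the maintenance pair, lie on chromosome 19. Their promoters are shown because both hold a sequence like the site bound by E2F factors, which drive genes of DNA replication. Each window runs from 250 bases before to 50 bases after a transcript start, taken from RefSeq on GRCh38.p14, 5′ to 3′ on the gene's strand. DNMT1 occupies chr19:10194904-10195203 (minus strand) and the first of 3 UHRF1 windows occupies chr19:4909251-4909550 (plus strand). Capitals mark the match.
DNMT1: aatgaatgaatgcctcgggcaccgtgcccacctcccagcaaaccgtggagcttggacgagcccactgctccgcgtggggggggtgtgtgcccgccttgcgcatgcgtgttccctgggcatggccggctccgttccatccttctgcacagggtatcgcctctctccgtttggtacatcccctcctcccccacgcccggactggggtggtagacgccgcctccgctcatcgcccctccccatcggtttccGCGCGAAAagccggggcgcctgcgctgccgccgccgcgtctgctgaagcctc
UHRF1: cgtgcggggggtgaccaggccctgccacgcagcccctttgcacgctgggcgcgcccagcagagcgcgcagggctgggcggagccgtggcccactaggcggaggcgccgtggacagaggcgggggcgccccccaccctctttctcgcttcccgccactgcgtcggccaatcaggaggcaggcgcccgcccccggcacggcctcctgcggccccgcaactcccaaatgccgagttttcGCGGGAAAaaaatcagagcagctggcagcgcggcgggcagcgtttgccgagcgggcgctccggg
The letters searched were TTTCCCGC, TTTCGCGC, TTTGCCGC and TTTGGCGC on both strands. The match began at position -2 relative to the transcript start for DNMT1 and at -14 for UHRF1, and a second UHRF1 window (chr19:4909894-4910193) held a match at -160. Among the members, 2 of 10 genes and 3 of 21 windows had a match, against 3.99% of 27305 genes and 3.31% of 35116 windows overall. No match was found in the windows of the other 8 members, which says only that these letters are not there. CpG dinucleotides numbered 30 in the DNMT1 window and 36 in the UHRF1 window, with a median of 26 over the 21 member windows and of 14 over all windows. The single DNMT3B window (chr20:32779602-32779901) held 3 CpG, the fewest of any member window. It lies inside the gene as GENCODE 29 annotates it (chr20:32762385-32809356, plus strand). The annotated start of DNMT3B was therefore not searched, and its CpG were not counted. In the GENCODE 29 annotation DNMT1 spans chr19:10133345-10231286 and UHRF1 chr19:4903080-4962154 on hg38. The windows of DNMT1 and UHRF1, placed at RefSeq starts, therefore also lie inside the annotated genes. The outermost GENCODE starts of these genes were not searched either.

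Under siControl the members ranged from the middle to the upper end of all genes above 0, a set that includes trace levels. TET1 lay below the 0.5 FPKM that the limma tests required. UHRF1 led in 769-P at 24.3 ± 3.77 FPKM (mean ± SD, n = 3) and DNMT1 followed at 23.2 ± 2.66 FPKM, and their ranges overlapped. In ACHN the order was reversed, with DNMT1 at 17.9 ± 1.28 FPKM and UHRF1 at 14.0 ± 1.45 FPKM, without overlap. MBD2 came next in both lines, followed by TDG. At the other end, TET1 averaged 0.323 ± 0.0558 FPKM in 769-P and 0.257 ± 0.0923 FPKM in ACHN, below TET2 in every library. Against all genes above 0 in the same group, DNMT1 stood at percentile 92.9 in 769-P and 91.7 in ACHN, and TET1 at 46.6 and 43.4. Among neighbours in 769-P, UHRF2 and TET3 also overlapped, and the other neighbours did not. In ACHN the ranges of UHRF1 and MBD2 overlapped, as did those of each neighbouring pair from TDG through TET3, DNMT3B and DNMT3A to UHRF2.

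**Figure D1:**
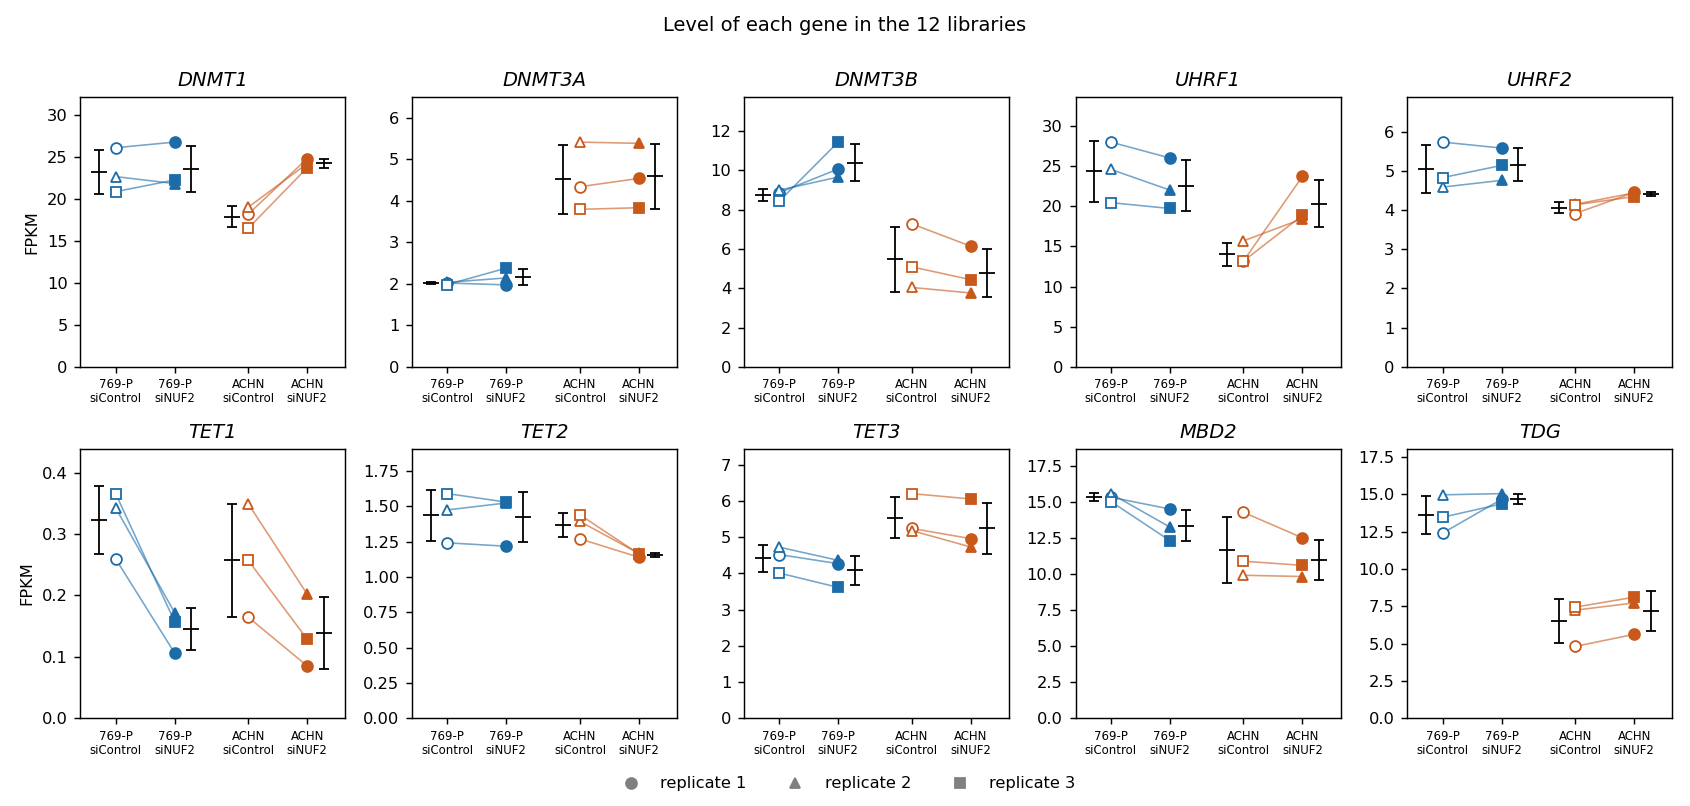
Expression of the 10 genes in FPKM (y axis, from 0, one scale per gene) in each of the 12 libraries by group (x axis); open symbols are siControl and filled symbols siNUF2, lines join libraries with the same replicate number, and black bars give mean ± SD of 3 libraries. In ACHN the siNUF2 libraries of DNMT1 sit between 23.7 and 24.8 FPKM, above siControl at 16.5 to 19.0 FPKM, while TET1 falls along every line in both cell lines.

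Within the methyltransferases, the split between DNMT3A and DNMT3B set the lines apart more than the share of DNMT1. DNMT1 gave 68.2% ± 2.08 of the summed FPKM of DNMT1, DNMT3A and DNMT3B in 769-P and 64.3% ± 2.96 in ACHN under siControl, with ranges of 66.7% to 70.6% and 61.0% to 66.8% that overlapped. DNMT3A gave 5.95% ± 0.447 of that sum in 769-P and 16.2% ± 2.47 in ACHN. The ratio of DNMT3B to DNMT3A was 4.39, 4.42 and 4.25 in the 769-P siControl libraries and 1.68, 0.746 and 1.34 in those of ACHN, so the ranges lay well apart. Among the oxidising enzymes, TET3 gave 71.5% ± 3.98 of the TET sum in 769-P and 77.3% ± 2.12 in ACHN, and TET1 at most 6.13% in any siControl library. UHRF1 gave 82.7% ± 1.71 of the UHRF sum in 769-P and 77.5% ± 1.52 in ACHN. FPKM is scaled here to the combined exon length of all annotated transcripts of a gene, such as 12020 bases for DNMT3A and 4630 for DNMT3B. Shares and ratios between genes depend on those lengths and need not equal shares of transcript molecules. The same share or ratio can be compared between groups.

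The baseline difference between the lines was tested with limma on log2(scaled FPKM + 0.1) over 15377 genes, with Benjamini-Hochberg adjustment and a call at an adjusted p under 0.05. Of all genes tested, 61.4% were called, 31.9% higher in 769-P and 29.6% higher in ACHN. Of the 9 members tested, 5 were called higher in 769-P and 1 higher in ACHN, a share near that background. TET1 was below the minimum of 0.5 FPKM in 3 libraries that the test required.

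TDG showed the widest baseline gap of the members called higher in 769-P. It measured 12.4, 14.96 and 13.5 FPKM in 769-P and 4.81, 7.24 and 7.44 FPKM in ACHN under siControl. All 769-P libraries lay above all ACHN libraries, with a log2 difference of 1.11 (SE 0.186, limma with Benjamini-Hochberg adjustment, adjusted p = 0.00207). An annotated copy, TDGP1, was listed at 0.482 to 0.663 FPKM in 769-P and 0.078 to 0.185 FPKM in ACHN, and reads shared between the copies may have been split by the counting.

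DNMT3A went the other way. Its siControl levels were 2.02, 2.04 and 1.98 FPKM in 769-P and 4.34, 5.42 and 3.80 FPKM in ACHN, without overlap. The log2 difference, 769-P minus ACHN, was -1.08 (SE 0.154, limma, adjusted p = 0.000963).

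DNMT3B, its partner in de novo methylation, measured 8.87, 8.99 and 8.43 FPKM in 769-P and 7.28, 4.04 and 5.09 FPKM in ACHN. The 769-P libraries were the higher ones, though ACHN replicate 1 came close, and the log2 difference was 0.74 (SE 0.207, limma, adjusted p = 0.0186). That call was lost without 769-P siControl replicate 1 (adjusted p = 0.0528), without 769-P replicate 2 (0.0569) or without ACHN replicate 3 (0.0520), with log2 differences of 0.72 to 0.73.

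UHRF1 measured 28.0, 24.6 and 20.5 FPKM in 769-P and 13.2, 15.7 and 13.2 FPKM in ACHN. The groups did not overlap, and the log2 difference was 0.81 (SE 0.139, limma, adjusted p = 0.00222). For DNMT1 the levels were 26.1, 22.7 and 20.9 FPKM in 769-P and 18.2, 19.0 and 16.5 FPKM in ACHN. These groups did not overlap either, with a log2 difference of 0.40 (SE 0.112, limma, adjusted p = 0.0186). The DNMT1 call was lost without 769-P siControl replicate 1 (0.31, adjusted p = 0.0656), without 769-P replicate 2 (0.41, adjusted p = 0.0566) or without ACHN replicate 3 (0.36, adjusted p = 0.0640).

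MBD2 was called at the edge of the threshold. It measured 15.3, 15.6 and 15.1 FPKM in 769-P and 14.3, 9.93 and 10.9 FPKM in ACHN, so the line difference rested on 2 of the 3 ACHN libraries. The log2 difference was 0.43 (SE 0.144, limma, adjusted p = 0.0355). Leaving out any siControl library of 769-P, or replicate 2 or replicate 3 of ACHN, ended the call, with adjusted p from 0.0753 to 0.10.

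UHRF2, TET3 and TET2 did not pass the limma test between lines. UHRF2 differed by 0.33 on the log2 scale (95% interval 0.04 to 0.62, limma, adjusted p = 0.0516), although its 3 libraries of 769-P, at 4.58 to 5.73 FPKM, lay above those of ACHN at 3.91 to 4.14 FPKM. It was called under upper-quartile scaling (0.46, limma, adjusted p = 0.0191), with all 12 libraries in one fit (0.34, adjusted p = 0.0133) and by limma-voom (0.35, adjusted p = 0.0334), and not with the block in any of 3 fits. TET3 differed by -0.29 (95% interval -0.59 to 0.01, adjusted p = 0.0852 by limma), also without overlap. TET2 differed by 0.09 (95% interval -0.29 to 0.46, limma, adjusted p = 0.651), and its ranges overlapped. In all, 8 members had groups that did not overlap, 6 higher and 2 lower in 769-P, against 68.3% of all genes tested. For TET1, limma-voom on reads recovered from the FPKM gave a log2 difference of 0.40 (95% interval -0.31 to 1.12, adjusted p = 0.288).

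**Figure D2:**
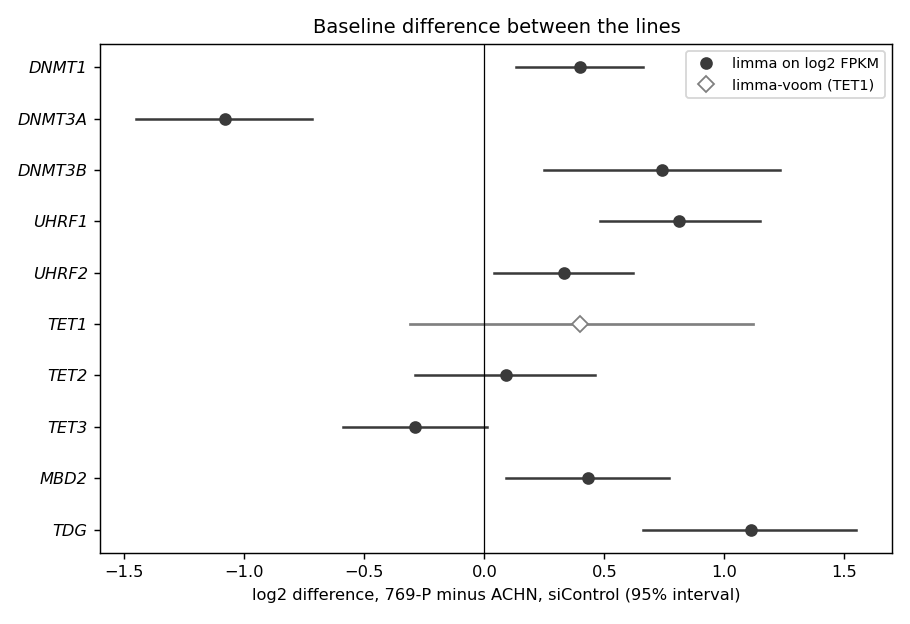
Log2 difference between 769-P and ACHN under siControl (x axis; positive is higher in 769-P) for each gene (y axis), with points for the limma estimate and lines for the 95% interval, and an open diamond for the limma-voom estimate of TET1. DNMT3A, at -1.08, is the only gene of the 10 whose interval lies wholly below 0, and TDG at 1.11 lies farthest above it.

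The lines also differed in the abundance of genes of DNA replication. The 41 measured S phase genes other than UHRF1 summed to 863 to 918 FPKM in the siControl libraries of 769-P and to 351 to 448 FPKM in those of ACHN. Of the 41, 35 were called higher in 769-P, against 31.9% of all genes tested. In bulk RNA a smaller share of cells in S phase and less RNA per cell cannot be told apart. The part of this difference in the levels of DNMT1 and UHRF1 was not tested.

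The knockdown was compared with siControl within each line, by limma on 6 libraries. Same-numbered siNUF2 and siControl libraries deviated together in both lines, so each result is given with the replicate number as a block as well where that changed a call. In 769-P, 5.29% of 14160 genes were called higher with siNUF2 and 4.74% lower, and 27.5% were called with the block. None of the 9 members tested was called by limma without or with the block, while 2 had an unadjusted p under 0.05 in each fit. In ACHN, 0.0% of 15116 genes were called without the block, although 1238 had an unadjusted p under 0.05 and the lowest adjusted p was 0.11. The block raised this to 12.2% of genes, with 7.14% higher under siNUF2 and 5.05% lower, and in 769-P the blocked calls were 13.6% higher and 14.0% lower. The blocked ACHN calls depended on the filter: with the block and no filter on low values, limma called 0 of 33233 genes in ACHN, NUF2 included, though 5362 had an unadjusted p under 0.05; no adjusted p was below 0.0626. Each ACHN gene described below as rising or falling with the block is subject to that. Among the 9 members tested in ACHN, 0 were called without the block, where 2 had an unadjusted p under 0.05, and 1 was called higher with it. The limma-voom test on recovered reads, which could include TET1, called 11.7% of genes in 769-P and 0.0% in ACHN, where 1283 of 17207 genes had an unadjusted p under 0.05. With the block it called 34.0% of genes in 769-P, or 16.8% when lower calls alone are counted, and 20.6% in ACHN, or 9.52% for lower calls. By that fit 3 of the 10 members were called in 769-P, 2 of them lower, a share near the background. In ACHN 4 of the 10 were called, 2 of them lower.

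DNMT1 rose in ACHN once the libraries were paired. It measured 18.2, 19.0 and 16.5 FPKM with siControl and 24.8, 24.2 and 23.7 FPKM with siNUF2, in replicate order, from 5589 to 8884 recovered reads. Every siNUF2 library was above every siControl library, and the same-numbered differences were 0.45, 0.35 and 0.52 on the log2 scale. The log2 fold change was 0.46 (SE 0.092, limma, adjusted p = 0.258), a fold of 1.37, and with the replicate block the SE was 0.054 and the adjusted p = 0.0171. With the block and no filter on low values the adjusted p was 0.0742, and by limma-voom with the block it was 0.000203. In 769-P the same gene measured 26.1, 22.7 and 20.9 FPKM with siControl and 26.8, 21.8 and 22.2 FPKM with siNUF2. Those groups overlapped, and the log2 fold change was 0.03 (95% interval -0.09 to 0.16 with the block, limma, adjusted p = 0.648). S1PR2 overlaps DNMT1 on the same strand in the annotation, so reads in the shared stretch cannot be assigned with certainty.

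The difference between the 2 responses of DNMT1 was tested over all 12 libraries. The response in 769-P minus that in ACHN was -0.41 on the log2 scale (SE 0.154, limma, adjusted p = 1.0), and with the block the SE was 0.068 and the adjusted p = 0.0486. Without the block 0.0% of 16570 genes were called, with 772 at an unadjusted p under 0.05, and with the block 1.39%. With the block and no filter on low values the DNMT1 difference was again -0.41 but was not called (limma, adjusted p = 0.105). In that fit 0 of 36305 genes were called and 4141 had an unadjusted p under 0.05. By limma-voom with the block 5.78% of genes were called, DNMT1 among them at -0.42 (adjusted p = 0.00421).

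UHRF1, the recruiter of DNMT1, had the largest log2 fold change of the 9 members tested in ACHN. It measured 13.2, 15.7 and 13.2 FPKM with siControl and 23.7, 18.4 and 18.9 FPKM with siNUF2. All siNUF2 libraries were higher, with same-numbered differences of 0.84, 0.23 and 0.52 on the log2 scale, the largest in replicate 1. The log2 fold change was 0.55 (SE 0.141, a fold of 1.46, limma, adjusted p = 0.373), and with the block the adjusted p was 0.0507, short of the threshold. It passed in limma-voom with the block (0.54, adjusted p = 0.00183). In 769-P UHRF1 measured 28.0, 24.6 and 20.5 FPKM with siControl and 26.0, 22.0 and 19.7 FPKM with siNUF2, each pair slightly lower under siNUF2. The groups overlapped there, and the log2 fold change was -0.10 (95% interval -0.21 to 0.02 with the block, limma, adjusted p = 0.177). The difference between the lines, -0.63 on the log2 scale, missed the threshold with the block (limma, adjusted p = 0.0902) and passed in limma-voom with the block (-0.64, adjusted p = 0.00685).

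The ratio of DNMT1 to UHRF1 overlapped between the siRNAs in ACHN, at 1.38, 1.21 and 1.25 with siControl and 1.05, 1.31 and 1.26 with siNUF2. In 769-P the ratio was 0.932, 0.921 and 1.02 with siControl and 1.03, 0.991 and 1.13 with siNUF2. After each line's mean was subtracted, the log2 levels of DNMT1 and UHRF1 correlated at r = 0.91 over the 12 libraries, which are points that share line and siRNA. UHRF2 differed by less than either in ACHN. It measured 3.91, 4.14 and 4.13 FPKM with siControl and 4.45, 4.44 and 4.34 FPKM with siNUF2 in ACHN, without overlap, and its log2 fold change of 0.13 was not called (95% interval -0.02 to 0.29 with the block, limma, adjusted p = 0.204). In 769-P the UHRF2 difference was 0.04 (95% interval -0.10 to 0.19 with the block, limma, adjusted p = 0.616). An antisense gene overlaps UHRF2, and whether reads were counted by strand is not given in the sources used here.

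**Figure D3:**
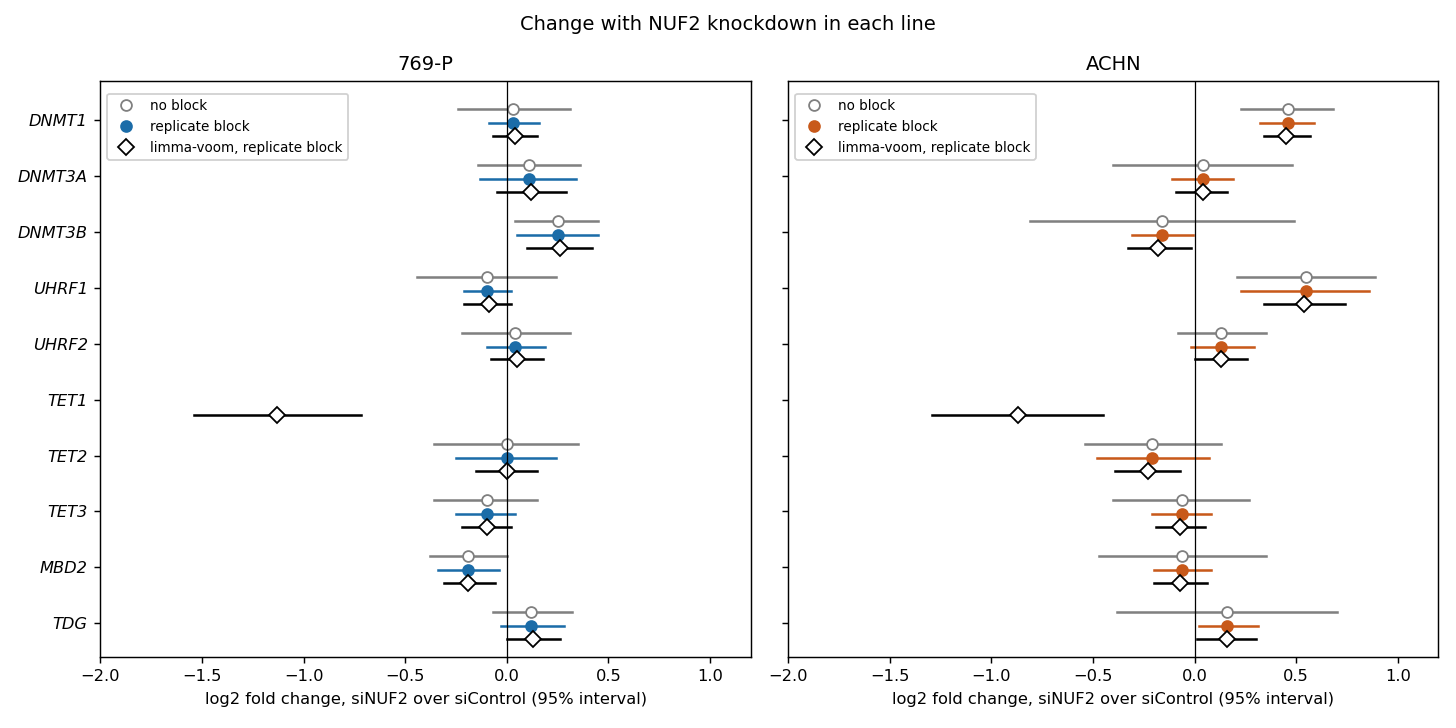
Log2 fold change of siNUF2 over siControl (x axis) for each gene (y axis) in 769-P (left) and ACHN (right), with 95% intervals from limma without a block, limma with the replicate block and limma-voom with the replicate block; TET1 has the limma-voom estimate alone. DNMT1 and UHRF1 lie to the right of 0 in ACHN and near 0 in 769-P, and TET1 lies to the left of 0 in both lines.

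Neither de novo methyltransferase was called by limma in either line, with or without the block. DNMT3B measured 8.87, 8.99 and 8.43 FPKM with siControl and 10.1, 9.66 and 11.4 FPKM with siNUF2 in 769-P. These groups did not overlap, and the log2 fold change was 0.25 (SE 0.087, limma, adjusted p = 0.119), with an adjusted p of 0.0741 under the block and 0.0174 by limma-voom with the block. In ACHN it measured 7.28, 4.04 and 5.09 FPKM with siControl and 6.14, 3.76 and 4.44 FPKM with siNUF2, lower in each of 3 pairs but with overlapping groups. The log2 fold change there was -0.16 (95% interval -0.31 to -0.01 with the block, limma, adjusted p = 0.130). The difference between the lines was 0.42 with an adjusted p of 0.0994 under the block by limma, and 0.43 with an adjusted p of 0.0299 by limma-voom with the block.

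DNMT3A groups overlapped in both lines. In 769-P it measured 1.98, 2.14 and 2.38 FPKM with siNUF2, against 1.98 to 2.04 FPKM with siControl, and the log2 fold change was 0.11 (95% interval -0.13 to 0.34 with the block, limma, adjusted p = 0.428). In ACHN it measured 4.54, 5.39 and 3.83 FPKM with siNUF2 and 4.34, 5.42 and 3.80 FPKM with siControl, nearly the same in each pair. The log2 fold change in ACHN was 0.04 (95% interval -0.11 to 0.19 with the block, limma, adjusted p = 0.671). DNMT1 made up 72.2% ± 2.15 of the methyltransferase sum in ACHN with siNUF2, above the 64.3% ± 2.96 with siControl, and the ranges, 69.9% to 74.1% and 61.0% to 66.8%, did not overlap.

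TET1, the lowest member, had the largest fold change of the 10 by limma-voom in both lines. In 769-P it measured 0.260, 0.342 and 0.366 FPKM with siControl, from 71, 102 and 110 recovered reads, and 0.106, 0.172 and 0.157 FPKM with siNUF2, from 31, 46 and 45 reads. The groups did not overlap, and siNUF2 stood at 45.1% of siControl. In ACHN it measured 0.165, 0.349 and 0.257 FPKM with siControl, from 48, 125 and 84 reads, and 0.0854, 0.202 and 0.129 FPKM with siNUF2, from 29, 65 and 41 reads. All 3 pairs were lower in ACHN too, but the groups overlapped and siNUF2 stood at 54.0% of siControl. By limma-voom on the recovered reads the log2 fold change in 769-P was -1.15 (SE 0.245, adjusted p = 0.0190), and -1.13 with the block (adjusted p = 0.000865). In ACHN it was -0.91 (SE 0.407, limma-voom, adjusted p = 0.703), and -0.87 with the block (adjusted p = 0.00814). On log2(FPKM + 0.1) with no filter on low values, a scale that understates changes of low genes, the limma estimates were -0.78 in 769-P (adjusted p = 0.208) and -0.57 in ACHN (adjusted p = 0.902), and neither was called with the block. The responses of the lines differed by -0.27 (95% interval -0.82 to 0.29, limma-voom with the block, adjusted p = 0.639). The pseudogene TET1P1 was listed at 0 in all libraries, and the annotated TET1 gene holds 2 further pseudogenes, COX20P1 and RPS3AP37, on its strand.

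TET2 and TET3, which made up most of the summed TET FPKM, differed little between the siRNAs. TET2 in ACHN measured 1.27, 1.39 and 1.44 FPKM with siControl and 1.14, 1.17 and 1.16 FPKM with siNUF2. The groups did not overlap, and the log2 fold change was -0.21 (95% interval -0.48 to 0.07 with the block, limma, adjusted p = 0.256). It was called only by limma-voom with the block (-0.23, adjusted p = 0.0481). In 769-P TET2 measured 1.24 to 1.59 FPKM with siControl and 1.22 to 1.53 FPKM with siNUF2, with a 95% interval of -0.25 to 0.24 under the block. TET3 was slightly lower in all 3 pairs of both lines, by 0.08, 0.11 and 0.15 in 769-P, and was not called (limma with the block, adjusted p = 0.221 in 769-P and 0.489 in ACHN). The ratio of TET3 to TET1 was 17.4, 13.8 and 10.97 with siControl in 769-P and 40.1, 25.3 and 23.0 with siNUF2, without overlap. Antisense or opposite-strand genes overlap both TET2 and TET3.

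The reader MBD2, in 769-P, measured 15.3, 15.6 and 15.1 FPKM with siControl and 14.5, 13.3 and 12.3 FPKM with siNUF2, without overlap. The log2 fold change of -0.19 (SE 0.080, limma, adjusted p = 0.18) was not called, also with the block (adjusted p = 0.0678), and was called by limma-voom with the block (adjusted p = 0.0264). In ACHN it measured 14.3, 9.93 and 10.9 FPKM with siControl and 12.5, 9.85 and 10.6 FPKM with siNUF2, and the log2 fold change was -0.06 (95% interval -0.20 to 0.08 with the block, limma, adjusted p = 0.483).

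TDG was higher with siNUF2 in all 3 pairs of both lines, with log2 differences of 0.24, 0.01 and 0.09 in 769-P. The ACHN pairs differed by 0.22, 0.09 and 0.12. Its groups overlapped in both lines, and the limma adjusted p with the block was 0.199 in 769-P and 0.127 in ACHN. In replicate order the siNUF2 levels were 14.7, 15.04 and 14.35 FPKM in 769-P and 5.62, 7.73 and 8.11 FPKM in ACHN. Of the 9 members tested, 1 was higher and 1 lower with siNUF2 without overlap in 769-P, against 33.3% of all genes tested, and 3 were higher and 1 lower in ACHN, against 14.3%; with 3 libraries a group, the exact permutation test of one gene cannot give a p below 0.1.

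The genes of replication moved with the maintenance pair in ACHN. The 41 S phase genes summed to 351, 424 and 448 FPKM with siControl and 519, 488 and 556 FPKM with siNUF2, so the groups did not overlap. Their log2 fold changes ran from 0.03 to 0.97 with a median of 0.37, all 41 above 0, against a median of 0.01 over all genes. With the block 13 of the 41 were called higher and 0 lower, against 7.14% and 5.05% of all genes; without it 0 were called. GINS2, a subunit of the replicative helicase, was at 6.70 ± 0.722 FPKM with siNUF2 and 3.49 ± 0.958 FPKM with siControl (0.97, limma with the block, adjusted p = 0.0182), and CHAF1B, of the chromatin assembly factor, at 4.61 ± 0.0674 and 3.21 ± 0.558 FPKM (0.54, adjusted p = 0.0440 with the block). The values of DNMT1 (0.46) and UHRF1 (0.55) lay inside that range, and the part of the S phase genes in their rise was not tested.

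In 769-P the S phase sums overlapped, at 918, 871 and 863 FPKM with siControl and 965, 877 and 844 FPKM with siNUF2. With the block 8 of the 41 were called higher and 7 lower, against 13.6% and 14.0% of all genes, the median being 0.00. NASP, a histone chaperone, rose (27.3 ± 1.12 against 20.4 ± 1.55 FPKM, 0.43, limma, adjusted p = 0.0219), and CLSPN, which encodes the checkpoint adaptor claspin, fell with the block (-0.43, adjusted p = 0.0180). Of the 20 G2/M genes, 8 were called higher and 0 lower in ACHN with the block, with a median of 0.19. The shares of all genes were 7.14% and 5.05%. In 769-P 5 of the 20 were called higher and 2 lower, against 13.6% and 14.0% of all genes. Their sums overlapped between siControl and siNUF2 in both lines, but in ACHN each pair was higher with siNUF2, at 496, 709 and 663 FPKM against 419, 619 and 593 FPKM in replicate order. BIRC5, survivin, rose in both lines with the block, by 0.56 in each (limma, adjusted p = 0.00479 in 769-P and 0.0122 in ACHN).

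Of 9 partners and regulators of DNA methylation tested in ACHN, 1 was called with the block, a share near the 12.2% of all genes. This was CDCA7, which targets the remodeller HELLS to chromatin and is also on the S phase list (22.2 ± 1.87 against 15.7 ± 3.00 FPKM, 0.53, limma with the block, adjusted p = 0.0297). In 769-P 1 of 8 was called with the block, against 27.5% of all genes, namely QSER1, which shields DNA from de novo methylation and fell (-0.24, adjusted p = 0.0372). The list medians were 0.09 in ACHN and -0.08 in 769-P.

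Among 9 other methyl-CpG binding proteins, ZBTB4 rose in both lines with the block, to 16.9 ± 0.916 FPKM in 769-P (0.50, limma, adjusted p = 0.0127 without the block) and from 21.9 ± 3.14 to 25.4 ± 2.59 FPKM in ACHN (0.23, adjusted p = 0.0384 with the block). MBD6 also rose in 769-P (0.37, limma, adjusted p = 0.0361). With the block 2 were called higher and 1 lower in 769-P, against 13.6% and 14.0% of all genes. In ACHN 2 were called higher and 0 lower, against 7.14% and 5.05% of all genes. The second ACHN call, ZBTB38, was at 11.1 ± 5.4 FPKM with siNUF2 and 8.74 ± 5.08 FPKM with siControl, and its log2 fold change of 0.44 had an adjusted p of 0.975 by limma without the block and 0.044 with it. Without ACHN siControl replicate 2 its unblocked estimate was -0.18, in a fit that leaves siNUF2 replicate 2 unmatched. The blocked fit was not repeated without that library.

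The CXXC proteins, which bind unmethylated CpG, included a pair of paralogues that rose in both lines. KDM2A, a lysine demethylase that the study itself followed up from these libraries, rose from 6.77 ± 0.478 to 10.8 ± 0.8 FPKM in 769-P (0.67, limma, adjusted p = 0.00995) and from 5.13 ± 0.0464 to 7.42 ± 0.257 FPKM in ACHN (0.54, adjusted p = 0.0134 with the block). Its paralogue KDM2B rose from 1.05 ± 0.132 to 1.80 ± 0.0739 FPKM in 769-P (0.74, limma, adjusted p = 0.0218) and from 2.3 ± 0.39 to 4.07 ± 1.18 FPKM in ACHN (0.79, adjusted p = 0.0194 with the block). CXXC5 fell in 769-P (-0.27, limma, adjusted p = 0.0480), and FBXL19 rose there with the block (0.30, adjusted p = 0.0260). With the block 3 of the 7 tested were called higher and 1 lower in 769-P, against 13.6% and 14.0% of all genes. In ACHN 2 were called higher and 0 lower, against 7.14% and 5.05% of all genes.

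**Figure D4:**
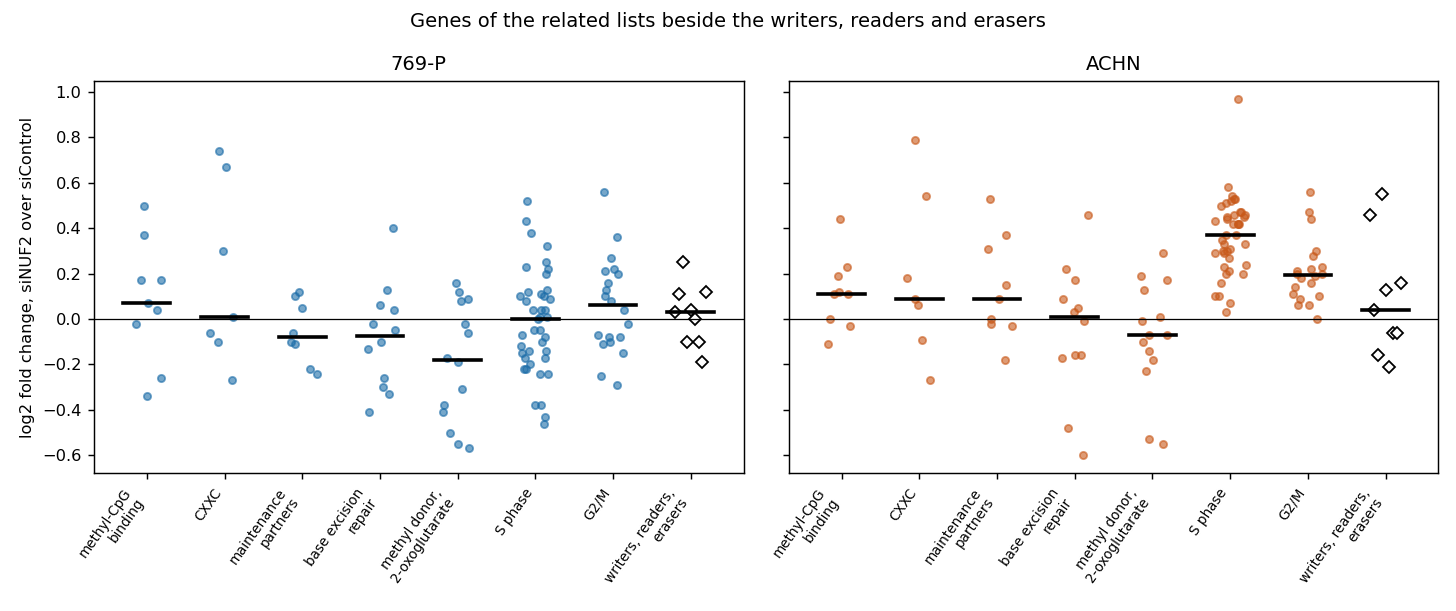
Log2 fold change of siNUF2 over siControl (y axis) for every tested gene of 7 related lists and for the 9 tested writers, readers and erasers (x axis), in 769-P (left) and ACHN (right); bars mark medians, estimates are from limma, and a few genes such as CDCA7 stand in more than one list. The S phase genes centre on 0.37 in ACHN and 0.00 in 769-P, and the writers, readers and erasers on 0.04 and 0.03.

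Downstream of TET and TDG, 12 base excision repair genes were tested. In 769-P 1 was called higher and 3 lower with the block, against 13.6% and 14.0% of all genes, with PARP1, the sensor of strand breaks, from 53.4 ± 0.694 to 42.4 ± 3.98 FPKM (-0.33, limma, adjusted p = 0.0489 without the block) and the glycosylase NEIL3 from 10.4 ± 0.511 to 7.81 ± 0.933 FPKM (-0.41, adjusted p = 0.0121 with the block) among the lower. In ACHN 1 was called lower, against 5.05% of all genes. This was GADD45B, a stress-induced gene linked to active demethylation, at -0.60 (limma with the block, adjusted p = 0.0254). In 769-P the same gene was the one called higher, at 0.40 (limma with the block, adjusted p = 0.0129). Without the block its limma adjusted p was 0.539 in 769-P and 0.773 in ACHN, and leaving out 1 library moved the unblocked estimate between 0.11 (without siControl replicate 2) and 0.76 (without siNUF2 replicate 2) in 769-P and between -0.38 and -0.95 in ACHN, without the same libraries.

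Of 14 genes of methyl donor and 2-oxoglutarate metabolism, 1 was called lower in 769-P without the block, against 4.74% of all genes. With the block 8 were called lower, against 14.0%, with 0 higher and a median of -0.18. In ACHN 0 were called without the block and 3 lower with it, against 5.05% of all genes, and 5 of the 14 lay above 0 with a median of -0.07. IDH1, a cytosolic source of 2-oxoglutarate, fell from 30.9 ± 5.94 to 20.8 ± 3.66 FPKM in 769-P (-0.55, limma with the block, adjusted p = 0.00560). In ACHN IDH1 fell from 33.2 ± 1.35 to 22.7 ± 2.52 FPKM (-0.53, limma with the block, adjusted p = 0.0140). A link between IDH1 and the TET genes was not tested. SHMT1, which passes 1-carbon units from serine to folate, fell in 769-P (-0.50, limma with the block, adjusted p = 0.00676).

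No member of a list of 14 germline genes known to be silenced by promoter methylation passed the minimum level in either line. Their summed level was 0.0998 to 0.223 FPKM with siControl and 0.115 to 0.187 FPKM with siNUF2 in 769-P, and 0.218 to 0.476 FPKM and 0.261 to 0.496 FPKM in ACHN, overlapping in both lines, and 4 of the 14 were at 0 in all libraries.

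As a description of likeness, each member was correlated with all genes of at least 1 FPKM on average, over the 12 libraries after each line's mean was subtracted. Differences between the siRNAs were left in. UHRF1 was most like AC112777.1 (r = 0.962), then Y_RNA (r = 0.928) and CDC6 (r = 0.924), which loads the replicative helicase. DNMT1 was most like WDR5 (r = 0.960), then ARMC6 (r = 0.936) and AC112777.1 (r = 0.927). TDG was most like FUBP1 (r = 0.979), TET3 most like BCOR (r = 0.968) and TET1 most like CTAGE5 (r = 0.975). The other leading genes were USP20 for DNMT3A (r = 0.945), TNFSF9 for DNMT3B (r = 0.971), AC055811.4 for UHRF2 (r = 0.891), THOC2 for TET2 (r = 0.938) and HAUS6 for MBD2 (r = 0.963). Among the members themselves the strongest pairs were DNMT1 with UHRF1 (r = 0.91), DNMT1 with TET2 (r = -0.90), and MBD2 with TDG (r = -0.81). For the last pair, the ACHN libraries of replicate 1 had the highest MBD2 and the lowest TDG of their groups.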

How the data were processed

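RNA was sequenced in 12 libraries, 3 per line and siRNA. Per the labels' processing notes, HISAT2 2.0.5, featureCounts 1.5.0-p3 and hg38 were used; fastp filtering is named in the study's methods, and the annotation and strand setting are not given in the sources used here. The authors deposited FPKM per gene, 1 table per library, which is the value read here. With GENCODE 29 exon lengths, 96.8% of values of at most 50 reads came out as whole reads within 0.02, and all 10 members did, so reads could be recovered for 97.3% of genes above 0. Recovered totals were 29186320 to 38744805 reads; their number limits the precision of low genes such as TET1.

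FPKM were scaled by a trimmed mean of log ratios (30% of ratios and 5% of levels trimmed at each end), genes at 0.5 FPKM or more in at least 3 libraries of the fit were kept, and log2(FPKM + 0.1) was fitted with limma 3.58.1 (R 4.3.3; trended eBayes, Benjamini-Hochberg over all genes tested, call at an adjusted p under 0.05). Fold changes are on that log2 scale. Each line was fitted alone, the baseline on the siControl libraries, and the difference in response on all 12. The count test named in the study's methods was not run. Limma-voom on recovered reads (at least 10 in 3 libraries) was an alternative, and its use with the replicate block was chosen after the data were seen. Other alternatives were the scaling, the pseudocount, the filter, a shared fit of all libraries, a stricter threshold and leaving out each library. The scripts were tested on simulated data.

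Same-numbered siNUF2 and siControl libraries deviated together over all genes. The 769-P correlations lay between 0.19 and 0.355, and those of ACHN between 0.46 and 0.735. Other numbers gave -0.243 to -0.011 and -0.555 to -0.062. Deviations from a group's mean cancel over its libraries, so positive values for the same number bring negative ones for the others. The negative values are therefore no separate support for the pairing. The pairing comes from the replicate number in the titles, and the labels do not say what it marks. No library pair of a group agreed within sampling noise.

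All 10 members and NUF2 are named; from each related list, in each line, up to 3 genes with the lowest and up to 3 with the highest fold change among those called with or without the block, of which some are given; and for each member the genes most like it. Marker genes are given as checks. Some genes of the related lists that the rule names are not reported here. The members, lists and motif were chosen with earlier results of these data known.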

Additional observations from a re-analysis of the deposited data

Results flagged for a closer look

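The response of DNMT1 to siNUF2 differed between the lines by the test of the difference itself, in the fit with the replicate block. The log2 fold change in 769-P minus that in ACHN was -0.41 (limma with the replicate block, Benjamini-Hochberg adjusted p = 0.0486), with every same-numbered pair higher under siNUF2 in ACHN (0.45, 0.35 and 0.52) and 2 of 3 higher in 769-P (0.04, -0.05 and 0.09). The call rests on the block and on the filter. Over 22 alternatives to the unblocked limma fit with the filter, the adjusted p ran from 0.00421 to 1.0, and the 2 that passed were this fit and limma-voom with the block. With the block and no filter on low values it was not called (limma, adjusted p = 0.105). In ACHN the S phase sums were 351 to 448 FPKM with siControl and 488 to 556 FPKM with siNUF2, and in 769-P 863 to 918 and 844 to 965 FPKM; their part in the difference was not tested. Groups of 3 libraries were not tested for single outlying samples.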

How the results depend on the processing

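Over settings other than leaving out a library, the fold changes of the 10 members kept direction and side of the threshold in 378 cases; 16 passed where the reported fit did not, 2 no longer passed and 3 turned sign. The cause was not tested. With the replicate block, calls went from 1420 to 3897 of all genes in 769-P, from 0 to 1843 in ACHN (members 0 to 1) and from 0 to 230 for the difference in response (members 0 to 1). Between the lines under siControl the numbers share only a label (r of -0.055 to 0.043); the block gave 9126 calls against 9445 and the same number of members, 6. Limma-voom called 1 member in 769-P, and with the block 3 members and 5460 genes there, 4 and 3542 in ACHN, and 3 and 1065 for the difference. All libraries in one fit gave 718 and 165 genes. No filter gave 649 in 769-P and 15 for the difference, and a pseudocount of 0.01 gave 2. At an adjusted p under 0.01, 175 genes in 769-P and 3 members at baseline passed. Leaving out 1 library gave 365 to 1144 genes in 769-P, 0 to 1 for the difference and 3 to 6 members at baseline. TET2 in 769-P sat at 0.00 under median-ratio and upper-quartile scaling and limma-voom with the block. With the block and no filter, 0 genes were called in ACHN and 0 for the difference. Fold changes that turned sign without 1 library, none of them called without the block, were in 769-P DNMT1 (-0.06 to 0.13), UHRF1 (-0.22 to 0.02), UHRF2 (-0.02 to 0.14) and TET2 (-0.09 to 0.10); in ACHN DNMT3A (-0.08 to 0.18), DNMT3B (-0.36 to 0.06), TET3 (-0.17 to 0.02), MBD2 (-0.17 to 0.08), TDG (-0.04 to 0.32) and ZBTB38 (-0.18 to 0.94; called with the block); and for the difference DNMT3A (-0.06 to 0.20), UHRF2 (-0.15 to 0.00), TET3 (-0.11 to 0.07) and TDG (-0.19 to 0.17). Depth limits TET1, at 29 to 125 reads per library, and 3 libraries a group limit every exact test to p = 0.1.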
